A study of Mus musculus with 20 samples.

Results

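The 10 genes described here, Mki67, Top2a, Cdk1, Ccnb1, Ccna2, Bub1, Aurkb, Kpna2, Mcm2 and Pcna, are transcribed mainly in cells that replicate their DNA or divide, and were chosen by name as a measure of dividing cells in the cultures, out of 39174 genes in the files. Their transcript levels were compared between compartments and between conditions in 20 RNA-seq libraries. Spinal motoneurons of CD-1 mouse embryos, enriched by panning on an antibody to p75, were grown in microfluidic chambers, in which axons grow through channels into a compartment of their own. The growth factor CNTF was given on both sides and BDNF on the axonal side, so that compartment and BDNF cannot be told apart. All cultures were transduced with lentivirus, which carried an empty expression vector in the control and 1 shRNA against Tdp-43 in the knockdown. The libraries are 4 axonal and 4 somatodendritic control libraries, and 6 axonal and 6 somatodendritic Tdp-43 knockdown libraries. The control libraries had been described in earlier work, which the study states were processed in parallel with the knockdown libraries, and no batch is given. The labels number the replicates without naming a culture, so that p-values measure the spread between these samples.

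A cell that divides passes from G1 into S phase, where the MCM helicase opens the DNA and PCNA clamps the polymerases to it, and then through G2 into mitosis, which cyclin-dependent kinase 1 drives with its cyclins. Most genes of G2 and mitosis are kept silent in resting cells by the DREAM complex, a repressor that sits at promoters with a CHR element, often beside CCAAT boxes bound by NF-Y. Motoneurons have left the cell cycle, whereas spinal progenitors, glia and fibroblasts can divide in culture. In libraries made from many cells, fewer cells of a type and less RNA per cell cannot be told apart.

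On build GRCm38 the genes of the mitotic kinase and its cyclins lie at chr10:69336635-69352938 (Cdk1), chr13:100778650-100786570 (Ccnb1) and chr3:36564866-36572150 (Ccna2), and those of chromosome structure at chr7:135689788-135716379 (Mki67) and chr11:98992943-99024189 (Top2a). Bub1 lies at chr2:127801122-127831865, Aurkb at chr11:69045647-69051664, Kpna2 at chr11:106988629-106999541, Mcm2 at chr6:88883475-88898780 and Pcna at chr2:132249162-132253314. All are protein-coding genes, on the minus strand except Aurkb.

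Promoter sequences of 8 members were found in the RefSeq table on build GRCm38.p6, which reaches from 250 bases before to 50 bases after a gene's RefSeq start. Ccna2 and Aurkb have no entry in it. Both strands were searched for the CHR word (TTTGAA), the CCAAT box and the E2F words TTTCCCGC, TTTCGCGC, TTTGCCGC and TTTGGCGC, and no matches in these promoters overlapped. All 8 promoters hold a CCAAT box, against 37.4% of all 32851 promoters of the same length, and 6 of the 8 hold at least 2, against 11.7%. A CHR word was found in 5 of the 8, those of Mki67, Top2a, Cdk1, Kpna2 and Mcm2, against 17.9% of all promoters. Only the promoter of Cdk1 holds one of the E2F words, against 2.26% of all promoters. These matches are descriptions of letters, not of binding. RefSeq starts can differ from the ends of the genes listed above. The windows below of Ccnb1 and Pcna, and the first of Cdk1, lie wholly or mostly inside the listed genes. The windows of 30 bases below show the CHR words, or for Ccnb1, Bub1 and Pcna a CCAAT box, since these promoters hold no CHR word. They are written 5′ to 3′ along the gene, all on the minus strand, with the match, which may lie on either strand, in capitals.

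Cdk1, chr10:69352910-69352939: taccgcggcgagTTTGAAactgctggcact
Cdk1, chr10:69352966-69352995: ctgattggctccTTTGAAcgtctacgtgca
Mki67, chr7:135716478-135716507: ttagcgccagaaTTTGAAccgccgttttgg
Mki67, chr7:135716460-135716489: ccgccgttttggTTTGAAtcgggcgggctg
Top2a, chr11:99024195-99024224: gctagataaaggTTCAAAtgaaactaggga
Top2a, chr11:99024351-99024380: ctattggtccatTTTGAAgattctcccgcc
Kpna2, chr11:106999543-106999572: cctaacgtgtttTTCAAAcctaccaatgaa
Mcm2, chr6:88898833-88898862: agggctcagcctTTTGAAagctgtgggcgg
Ccnb1, chr13:100786536-100786565: gccacgaactggCCAATgaggagcgagcgg
Bub1, chr2:127831910-127831939: acggccgcagcgATTGGccagctctcccgc
Pcna, chr2:132253250-132253279: accacgggtacgATTGGtccttgaggagag

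The deposited unit is FPKM, fragments scaled to transcript length and to the library's mapped fragments, so that levels are per length and can be set side by side between genes. The width of the interval given with each FPKM value was turned into an implied number of fragments, which for a gene with several transcripts also carries the error of assigning fragments to them and is no count. The depth relative to the deepest library was 0.103 to 1 (median 0.592), and 4 of the 6 axonal knockdown libraries had 38.5% to 47.7% of their FPKM on mitochondrially encoded genes, against 8.88% and 12.8% in the other 2, and axonal control replicate 4 had 33%, against 8.92% to 13.1% in the other axonal control libraries. Tardbp, which encodes Tdp-43, checks the knockdown. It was at 27.3 ± 5.55 FPKM (SD, n = 4) in somatodendritic control and 4.01 ± 3.44 FPKM (n = 6) in somatodendritic knockdown libraries, without overlap. In the axonal compartment it was at 24.6 ± 9.39 FPKM (n = 4) in control and 13 ± 11.1 FPKM (n = 6) in knockdown libraries, and the library labelled axonal knockdown replicate 1 had 33.2 FPKM, above every control library. Values of the knockdown comparisons without that library are given beside part of the results that they move. Of the defining motoneuron markers, Chat, Mnx1 and Isl2 were listed at 0 in all 20 libraries, Slc5a7 in 19, Lhx3 in 15, Prph in 13, Isl1 in 12, Ngfr, which encodes the p75 used for panning, in 6 and Ret in 1, and Slc18a3 was not analysed here.

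In somatodendritic control libraries the order of the mean levels ran from Pcna at 44.3 ± 8.37 FPKM (SD, n = 4) and Cdk1 at 35 ± 11 FPKM down to Mcm2 at 3.75 ± 1.6 FPKM and Bub1 at 1.84 ± 1.1 FPKM. Between these came Ccna2 at 10.3 ± 2.04 FPKM, Mki67 at 8.86 ± 4.21 FPKM, Top2a at 8.38 ± 2.4 FPKM, Aurkb at 7.25 ± 1.63 FPKM, Ccnb1 at 6.07 ± 3.71 FPKM and Kpna2 at 5.15 ± 2.21 FPKM, where neighbours in the order differed by less than their SDs. All 10 genes were above 0 in each of the 8 control libraries. The mean level over the 4 groups was lowest in somatodendritic knockdown libraries for 8 members, in somatodendritic control libraries for Top2a and in axonal control libraries for Pcna. It was highest in axonal knockdown libraries for 6 members and in axonal control libraries for 4, so that no member had its highest mean in a somatodendritic group.

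**Figure D1:**
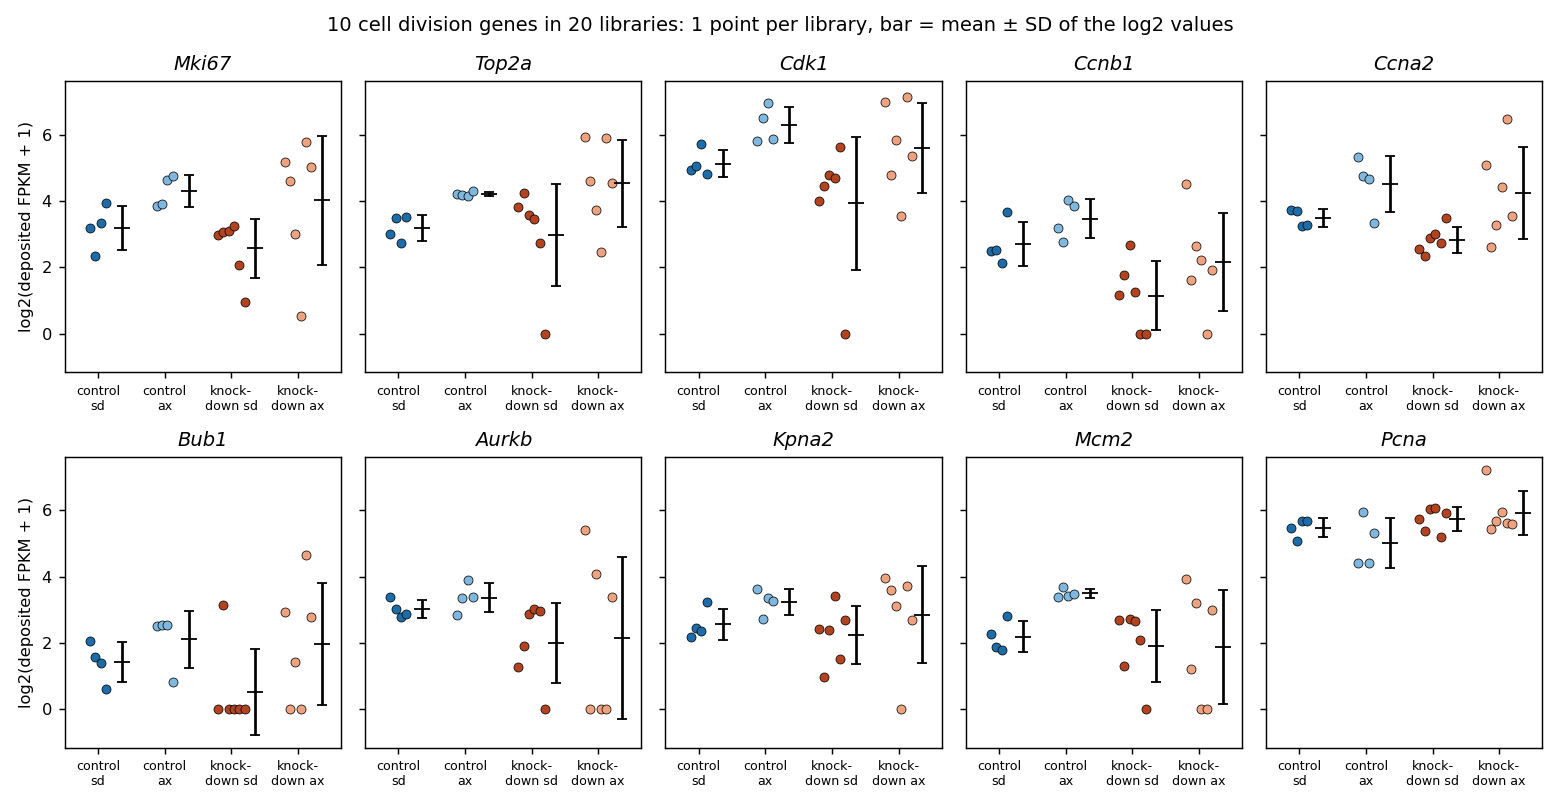
Level of each of the 10 genes in 20 libraries, as log2(deposited FPKM + 1), with 1 point per library in somatodendritic (sd) and axonal (ax) groups and a bar for the mean ± SD of the log2 values. The axonal control points of Top2a, Cdk1 and Mcm2 lie above all their somatodendritic control points, while knockdown libraries reach 0 for 7 of the 10 genes.

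The first comparison asks whether the levels of these 10 transcripts differ between the compartments of control cultures. All 10 members were higher in axonal than in somatodendritic control libraries on the scaled log2 scale, and 5 passed the test, namely Mcm2, Cdk1, Mki67, Ccna2 and Top2a, at log2 changes from that of Top2a to 1.75 for Mcm2. Median-of-ratios factors put the libraries on 1 scale, and log2(scaled FPKM + 1) was tested with limma over 13760 genes with Benjamini-Hochberg adjustment. At an adjusted p under 0.05, 5 of 10 members were higher, where 3.93% of all genes tested were. At an unadjusted p under 0.05, 8 of 10 were higher, against 11.1% of all genes. The median log2 change of the members was 1.36, and that of all genes tested was -0.06.

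Cdk1, the kinase that starts mitosis, had 55, 89.4, 122 and 58 FPKM in axonal control replicates 1 to 4 and 29.4, 32.3, 51.2 and 27.2 FPKM in somatodendritic control replicates 1 to 4. Every axonal value is above every somatodendritic one. The log2 change was 1.68 ± 0.32 (SE; adjusted p = 0.0117). Ccna2, which encodes cyclin A2, the partner of cyclin-dependent kinases in S phase and G2, had 39, 25.7, 24.2 and 9.16 FPKM in axonal and 12.2, 12, 8.41 and 8.71 FPKM in somatodendritic control replicates. Axonal replicate 4, which lies between the somatodendritic values, is the only overlap as deposited, and none is left after scaling. The log2 change of Ccna2 was 1.52 ± 0.41 (adjusted p = 0.0494). It kept an adjusted p under 0.05 in 2 of 8 other settings, where that p reached 0.106, and in 1 of 4 fits that left out a replicate number. Whether strand was used in counting is not given, so reads of Ccna2 can be shared with Exosc9, which overlaps it on the other strand, and Exosc9 had a log2 change of 0.84 ± 0.45 (adjusted p = 0.294). Ccnb1, cyclin B1, the mitotic partner of Cdk1, was at 10.7 ± 4.44 FPKM in axonal and 6.07 ± 3.71 FPKM in somatodendritic libraries, and its log2 change of 1.22 ± 0.43 passed without adjustment only (adjusted p = 0.121).

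Top2a, the topoisomerase that untangles replicated chromosomes, was within a narrow range in axonal control libraries, with 17.7, 17.1, 16.9 and 18.6 FPKM in replicates 1 to 4. The somatodendritic replicates had 7.05, 10.3, 5.66 and 10.5 FPKM, all below the axonal ones. The intervals of these values imply 3.21 to 4.89 fragments in axonal and 1.31 to 2.94 in somatodendritic libraries. Since Top2a has 7 annotated transcripts, these numbers also carry the error of assigning fragments to them and are no count of reads. Its log2 change was 1.50 ± 0.29 (adjusted p = 0.0126). Mki67, which encodes Ki-67, the protein that coats mitotic chromosomes and is the usual label of cycling cells, had 13.5, 14, 24 and 26.2 FPKM in axonal and 8.02, 4.05, 9.09 and 14.3 FPKM in somatodendritic replicates. As deposited the groups overlap, since somatodendritic replicate 4 is above axonal replicates 1 and 2. The log2 change of Mki67 was 1.58 ± 0.38 (adjusted p = 0.0333). Its intervals imply 55.1 to 118 fragments in axonal and 18 to 77.4 in somatodendritic control libraries. With 2 annotated transcripts for Mki67, these numbers do not rank its reads against those of Top2a.

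The genes of chromosome segregation were less clear. Aurkb, the Aurora B kinase of the chromosomal passenger complex, was at 9.72 ± 3.27 FPKM in axonal and 7.25 ± 1.63 FPKM in somatodendritic control libraries, with a log2 change of 0.81 ± 0.35 (adjusted p = 0.189). Bub1, a kinase of the spindle checkpoint, was at 4.71, 4.84, 4.87 and 0.765 FPKM in axonal and 3.21, 1.99, 1.62 and 0.535 FPKM in somatodendritic replicates. In both compartments replicate 4 was the lowest. The intervals of all these values imply less than 1 fragment, which is no count of reads. The log2 change of Bub1 was 1.03 ± 0.55 (adjusted p = 0.289).

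Kpna2, which encodes an importin alpha that carries proteins into the nucleus, was at 8.7 ± 2.43 FPKM in axonal and 5.15 ± 2.21 FPKM in somatodendritic control libraries, with a log2 change of 1.13 ± 0.37 (adjusted p = 0.0944). Its level is uncertain, because its transcript aligns over 1968 bases at 99.9% identity to that of Gm10184 and over 1590 bases at 99.8% identity to the processed pseudogene Gm10259. These copies were listed at 20.3 and 19.7 FPKM in axonal and 13.1 and 11.6 FPKM in somatodendritic control libraries on average, above Kpna2 itself. Both were higher in axonal control libraries, Gm10184 by 1.07 ± 0.28 on the log2 scale (adjusted p = 0.0472) and Gm10259 by 1.19 ± 0.30 (adjusted p = 0.0421).

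The replication genes differed from each other. Mcm2, a subunit of the MCM helicase, had 9.57, 12, 9.75 and 10.1 FPKM in axonal and 3.86, 2.69, 2.47 and 5.98 FPKM in somatodendritic control replicates, without overlap. The intervals of these values imply 13 to 16 fragments in axonal and 4 to 11 in somatodendritic libraries. The log2 change of Mcm2 was 1.75 ± 0.34 (adjusted p = 0.0135), the largest of the members. Pcna, the sliding clamp of replication, which also acts in DNA repair, had 20.5, 61.5, 20.3 and 38.8 FPKM in axonal and 43.2, 32.9, 50.4 and 50.7 FPKM in somatodendritic replicates. Its log2 change of 0.06 ± 0.34 (adjusted p = 0.937) did not exceed the spread between replicates. The processed pseudogene Pcna-ps2, which aligns to Pcna over 781 bases at 99.2% identity, was listed at 27.4 and 31.6 FPKM in axonal and somatodendritic control libraries on average, so that the share of Pcna in this signal is uncertain.

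Values as deposited gave smaller differences. Without scaling, the median of all genes was shifted to -0.48, the members' median log2 change was 0.89, and 3 members, Mcm2, Cdk1 and Top2a, kept an adjusted p under 0.05, while Pcna turned to -0.45. Deposited FPKM of the axonal control libraries were all above those of the somatodendritic ones for these 3 of 10 members, against 3.31% of all genes tested. With scaled values 5 of 10 members did not overlap, against 7.65% of all genes. With replicate number 1 or 2 left out no member passed adjustment, and with number 3 left out 1 did, while 118 to 290 of all genes passed in these fits instead of 949. The unadjusted counts were then 7 without number 1, 7 without number 2 and 5 without number 3, and the lowest log2 change of the 5 genes over all these fits was 1.33, that of Ccna2 without number 1.

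**Figure D2:**
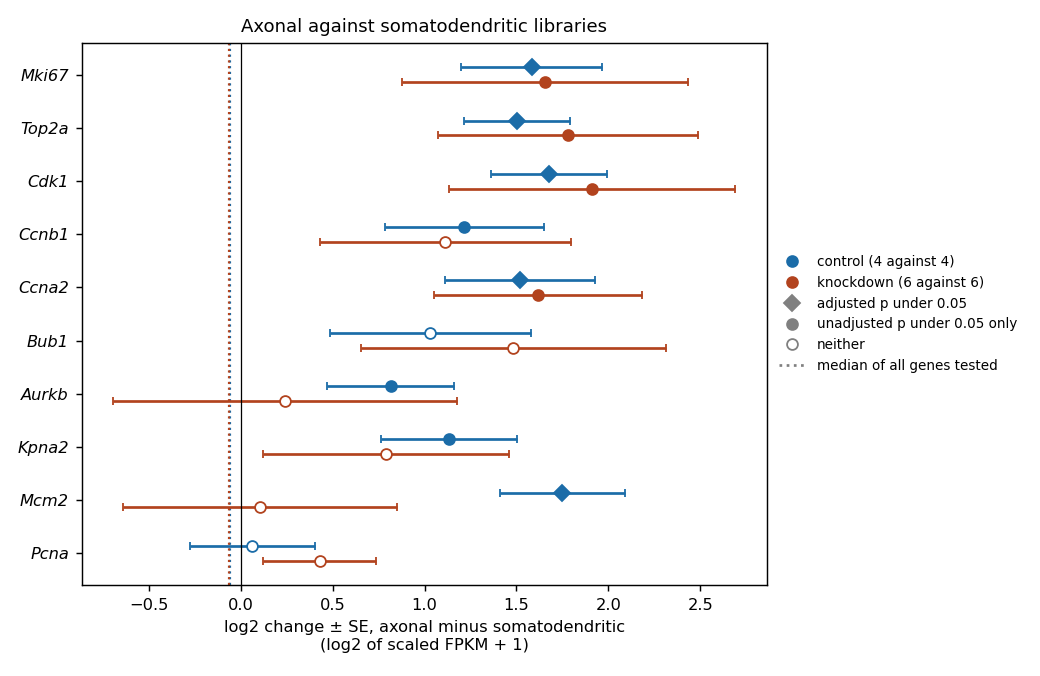
Log2 change ± SE of each of the 10 genes, axonal minus somatodendritic, in control libraries (blue) and Tdp-43 knockdown libraries (red), from log2(scaled FPKM + 1). All 20 points lie to the right of 0. The diamonds, at an adjusted p under 0.05, are control values of Mki67, Top2a, Cdk1, Ccna2 and Mcm2.

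In knockdown libraries all 10 members were again higher in the axonal compartment on the scaled log2 scale, with a median log2 change of 1.30 beside -0.07 for all 14021 genes tested, but the replicates spread more widely. No member passed adjustment in limma, where 0.856% of all genes were higher. At an unadjusted p under 0.05, 4 of 10 members were higher, against 7.86% of all genes. These were Cdk1 at 1.91 ± 0.78 on the log2 scale (adjusted p = 0.23), Top2a at 1.78 ± 0.71 (adjusted p = 0.213), Mki67 at 1.66 ± 0.78 (adjusted p = 0.299) and Ccna2 at 1.62 ± 0.57 (adjusted p = 0.159). All 4 were among the 5 genes called in control libraries. Mcm2, the fifth, was at 0.11 ± 0.74 (adjusted p = 0.965), and its direction turned without scaling.

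Levels spread widely between the libraries of the knockdown groups. Cdk1 was between 10.7 and 140 FPKM (median 47.9, n = 6) in axonal knockdown and between 0 and 48.6 FPKM (median 23) in somatodendritic knockdown libraries. Mki67 ranged from 0.434 to 54.2 FPKM (median 27.3) in axonal and from 0.955 to 8.48 FPKM (median 7.11) in somatodendritic knockdown libraries. Top2a ranged from 4.51 to 60.1 FPKM (median 22.7) and from 0 to 18.1 FPKM (median 10.4). In all 3 genes most axonal knockdown libraries were above the somatodendritic median and replicate 4 was the lowest axonal library. Ccna2 ranged from 5.09 to 87 FPKM (median 15.7) in axonal and from 4.07 to 10.1 FPKM (median 6.03) in somatodendritic knockdown libraries.

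Summed over the 10 genes, axonal control libraries held 185.8 to 261 FPKM and somatodendritic control libraries 112.7 to 144.1 FPKM, without overlap. Axonal knockdown libraries held 100.9 to 500.9 FPKM and somatodendritic knockdown libraries 76.71 to 139.5 FPKM. The highest sum, 500.9 FPKM, was in the library labelled axonal knockdown replicate 1, in which Tardbp was not lowered, and the next, 424.8 FPKM, in axonal knockdown replicate 5, the shallowest library, in which 3 of the 10 genes were listed at 0. Without replicate number 1 in both compartments, 1 member instead of 4 had an unadjusted p under 0.05, and Aurkb and Mcm2 turned to -0.53 and -0.12. The count was also 1 without number 6 and was 2 without number 5. Taking libraries of the same number as 1 culture, which the labels do not state, the axonal library was higher for 8, 10, 9 and 9 of 10 genes in control numbers 1 to 4. In knockdown numbers 1 to 6 it was higher for 10, 6, 7, 2, 7 and 9 genes.

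Of the markers of other cell types, some were higher in the axonal compartment as the members were, and others lower. Nes, which encodes nestin, an intermediate filament of progenitor cells, was at 64.84 to 95.65 FPKM in axonal and 4.947 to 17.82 FPKM in somatodendritic control libraries, a log2 change of 3.42 ± 0.35 (adjusted p = 0.000951). Col1a1, a collagen of fibroblasts, was at 11.91 to 36.52 FPKM and 0.7647 to 7.445 FPKM, a log2 change of 3.51 ± 0.52 (adjusted p = 0.00442), and in knockdown libraries its log2 change was 3.41 ± 0.61 (adjusted p = 0.0186). In knockdown libraries Nes was at 2.59 ± 0.62 (adjusted p = 0.0513) and Gja1 at 0.64 ± 0.51 (adjusted p = 0.571), short of the threshold. Gja1, a gap junction protein of astrocytes, was higher by 1.57 ± 0.27 (adjusted p = 0.00717). The other 3 astrocyte genes tested were lower in axonal control libraries without passing adjustment, Gfap at 1.8 against 9.36 FPKM (log2 change -1.95), Aqp4 at 0.815 against 4.39 FPKM (-1.24) and Aldh1l1 at 7.37 against 16.4 FPKM (-0.53). So were Olig2 at 5.29 against 19.1 FPKM (-1.54), Fabp7 (-0.81) and Slc1a3 (-0.32) of the progenitor list and the microglial genes C1qa (-1.82) and Cx3cr1 (-1.44). The lists as wholes moved less evenly. The summed fibroblast list (7 genes) was at 11.9 to 56.1 FPKM in axonal and 1.43 to 12.1 FPKM in somatodendritic control libraries, with Lum and Col6a3 at 0 in every axonal library. The summed progenitor list (10 genes) was at 193 to 598 and 282 to 411 FPKM. Of its 9 genes tested, 5 were higher, 3 at an unadjusted p under 0.05 in limma, and 4 lower, 1 at that threshold. The higher ones include Pax6 at 37.9 against 21.7 FPKM and Hes1 at 8.2 against 4.11 FPKM. Only Nes passed adjustment. Of all genes tested 11.1% were higher at an unadjusted p under 0.05 and 3.93% after adjustment. The astrocyte list (5 genes) was at 46.7 to 61.1 and 41.3 to 68 FPKM, and the oligodendrocyte and Schwann list (5 genes) at 2.6 to 26.2 and 9.75 to 23.7 FPKM. Microglial genes (5) summed to at most 4.52 FPKM in axonal and 4.34 to 25.7 FPKM in somatodendritic control libraries, endothelial genes (4) to at most 5.75 and 4.09 FPKM, erythroid genes (5) to at most 10.2 and 22.1 FPKM, and motoneuron genes (9) to 1.72 to 20.3 and 12.5 to 18.8 FPKM. The part of these cell types in the members' result was not tested.

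**Figure D3:**
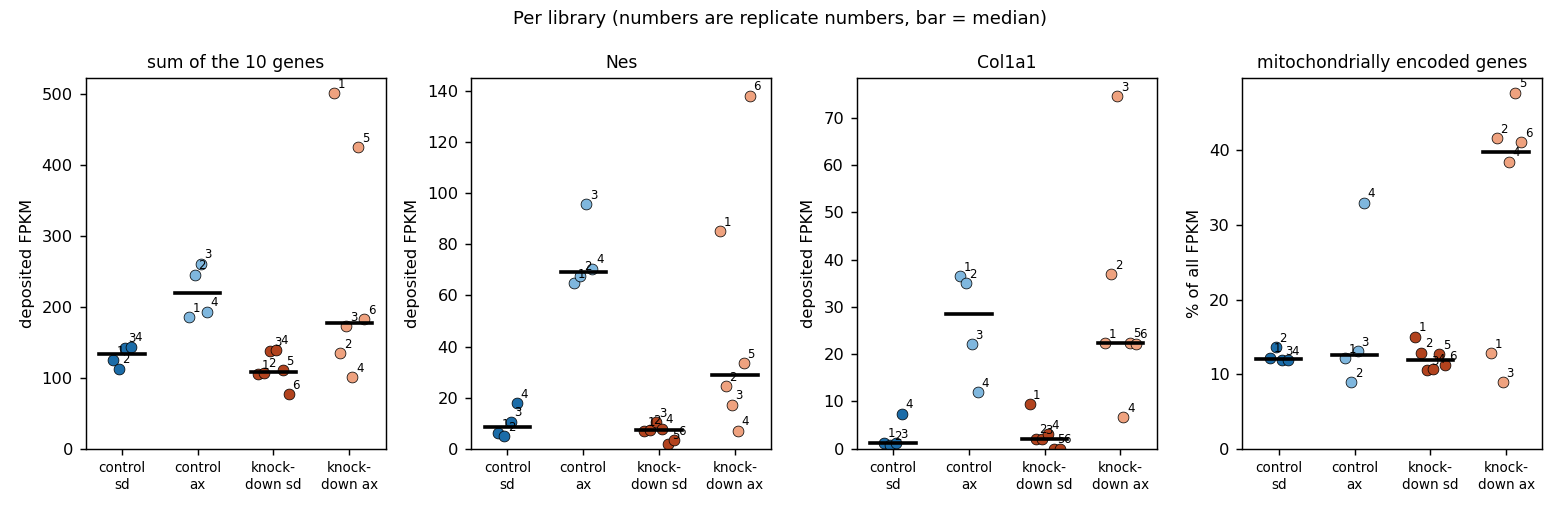
Sum of deposited FPKM over the 10 genes, FPKM of Nes and Col1a1, and the percentage of all FPKM on mitochondrially encoded genes, with 1 point per library numbered by replicate and a bar at the median of each group. The axonal control libraries lie above the somatodendritic control libraries for the sum, Nes and Col1a1. The axonal knockdown libraries 1 and 5 have the highest sums.

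Other cell cycle genes were read from lists without the 10 members, against 47.0% of all genes higher in axonal control libraries, 11.1% higher at an unadjusted p under 0.05 and 3.93% higher after adjustment. Of 48 tested genes of G2 and M phase, 44 were higher in axonal control libraries, 25 at an unadjusted p under 0.05, and 4 passed adjustment, with a median log2 change of 1.08 beside -0.06 for all genes. The 4 were Cenpf, a kinetochore protein, at 12.5 ± 4.51 FPKM against 2.42 ± 1.14 FPKM, Tpx2, a spindle assembly factor, at 16.4 ± 2.17 against 4.89 ± 1.65 FPKM, Anln, an actin-binding protein of the cleavage furrow, at 7.46 ± 2.46 against 1.73 ± 1.2 FPKM, and Cks1b, a subunit of cyclin-dependent kinases, at 25.5 ± 10.7 against 12.5 ± 6.76 FPKM (SD, n = 4 and 4; adjusted p = 0.00465 to 0.0466). Of 13 mitotic kinases and checkpoint genes tested, 12 were higher and 1, Incenp, which anchors Aurora B, passed adjustment at 1.63 ± 0.43 on the log2 scale (adjusted p = 0.045). The S phase list was more mixed, with 25 of 36 tested genes higher, 7 at an unadjusted p under 0.05, and a median log2 change of 0.39. Clspn, a checkpoint adaptor at replication forks, rose by 3.13 ± 0.59 (adjusted p = 0.0116), Uhrf1, which maintains DNA methylation, by 1.42 ± 0.35 (adjusted p = 0.0355) and Rrm1, a subunit of ribonucleotide reductase, by 1.14 ± 0.30 (adjusted p = 0.0441).

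Against the same shares of all genes, lists close to Mcm2 and Pcna had no gene past adjustment. Of 13 tested genes of the MCM helicase and origin licensing, 9 were higher, 3 at an unadjusted p under 0.05, with a median log2 change of 0.60. Of 15 genes of PCNA loading and lagging strand synthesis, 10 were higher, 3 at an unadjusted p under 0.05, with a median of 0.28. Among 15 tested G1 cyclins, kinases and E2F factors the median was 0.15, and 3 genes passed adjustment, all of them regulators of G1 entry. These were Cdk6 at 23.9 ± 8.18 FPKM in axonal against 5.15 ± 2.69 FPKM in somatodendritic control libraries, Ccnd1 at 64.9 ± 46.2 against 14.1 ± 2.88 FPKM and Ccnd2 at 34.2 ± 8.04 against 10.1 ± 2.91 FPKM (adjusted p = 0.00217 to 0.0199). Among 9 tested inhibitors of cyclin-dependent kinases and pocket proteins, 1 passed adjustment, and it acts in the opposite direction to the cyclins. Cdkn1a, the inhibitor p21, was at 98.9 ± 31.1 FPKM in axonal and 52.4 ± 9.01 FPKM in somatodendritic control libraries (adjusted p = 0.00638).

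**Figure D4:**
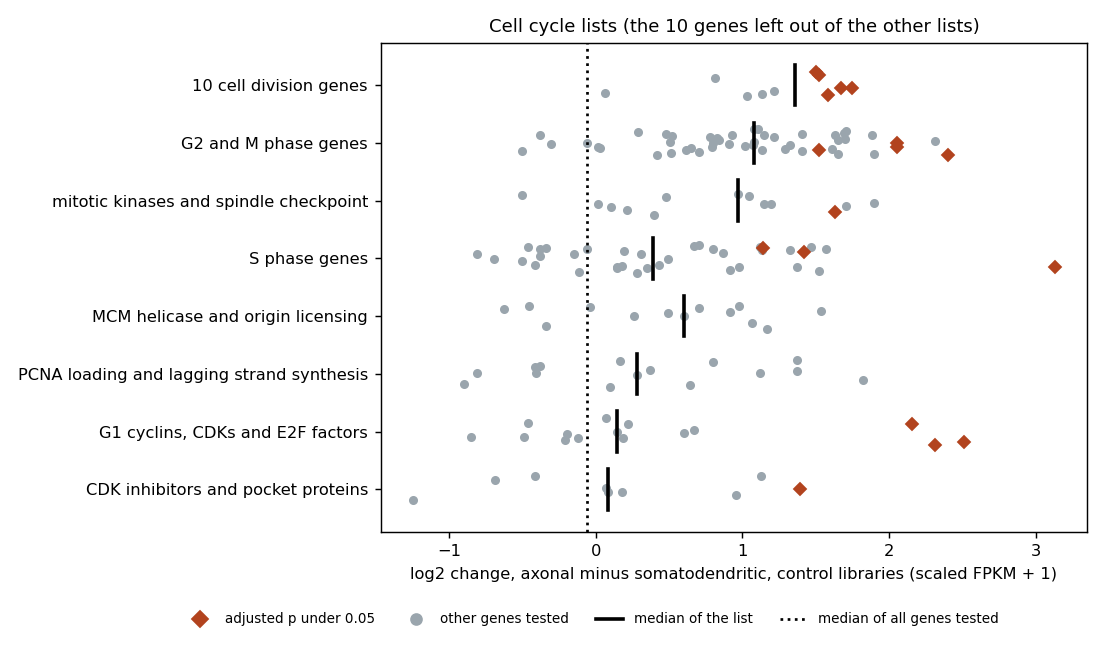
Log2 change between axonal and somatodendritic control libraries for every tested gene of 8 cell cycle lists, with 1 point per gene, diamonds at an adjusted p under 0.05, a bar at the median of each list and a dotted line at the median of all genes tested. The medians run from 1.36 for the 10 genes and 1.08 for G2 and M phase genes to 0.08 for inhibitors and pocket proteins.

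In knockdown libraries 43 of 47 tested genes of G2 and M phase were higher in the axonal compartment, 10 at an unadjusted p under 0.05, with a median log2 change of 0.94. Of all genes 46.8% were higher, 7.86% at an unadjusted p under 0.05 and 0.856% after adjustment. Psrc1, which binds spindle microtubules, passed adjustment at 16.2 ± 8.13 FPKM in axonal against 0.197 ± 0.481 FPKM in somatodendritic knockdown libraries (adjusted p = 0.00614), and of the other lists Ccnd2 did, at 50.4 ± 27.7 against 5.48 ± 2.67 FPKM (adjusted p = 0.0177). Of the S phase list 24 of 34 were higher, with a median of 0.53.

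The second question was whether loss of Tdp-43 changed these transcripts. In somatodendritic libraries 9 of 10 members were lower in knockdown on the scaled log2 scale and none passed adjustment in limma over 13762 genes, of which 0.756% were lower at that threshold. At an unadjusted p under 0.05, 2 of 10 were lower, against 9.22% of all genes. The members' median log2 change was -0.82, beside -0.13 for all genes. Ccnb1 had 4.63, 4.77, 3.35 and 11.6 FPKM in control replicates and 0 to 5.41 FPKM (median 1.31, n = 6) in knockdown replicates, 2 of which were listed at 0. The intervals of all 6 knockdown values imply less than 1 fragment, which is no count of reads. All but 1 of the knockdown values are below every control value. The log2 change of Ccnb1 was -1.69 ± 0.56 (adjusted p = 0.19). Its processed pseudogene Ccnb1-ps aligns to it over 1287 bases at 99.2% identity. Ccna2 had 8.41 to 12.2 FPKM in control and 4.07 to 10.1 FPKM (median 6.03) in knockdown libraries, and its log2 change was -0.84 ± 0.32 (adjusted p = 0.255).

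The other somatodendritic changes had unadjusted p-values of 0.0533, for Aurkb, and above. Cdk1 was at 35 ± 11 FPKM in control and 22.7 ± 15.9 FPKM in knockdown libraries (log2 change -1.41 ± 0.82), Aurkb at 7.25 ± 1.63 and 4.06 ± 3.07 FPKM (-1.20 ± 0.56), and Mki67 at 8.86 ± 4.21 and 5.74 ± 2.96 FPKM (-0.81 ± 0.48). Bub1 was listed at 0 in 5 of the 6 knockdown libraries and above 0 in all 4 control libraries. Kpna2, Mcm2 and Top2a were at -0.48 ± 0.48, -0.44 ± 0.55 and -0.42 ± 0.67, and Pcna, at 44.3 ± 8.37 and 53.4 ± 12.7 FPKM, was at 0.04 ± 0.22. Depth differed between these libraries, and its part in these values was not tested. Of the 2 shallow somatodendritic knockdown libraries, replicate 6, at a relative depth of 0.143, had 6 of the 10 genes at 0, and replicate 5, at 0.256, had 2 at 0. In other genes they were the highest of their group, Cdk1 at 48.6 FPKM in replicate 5 and Ccna2 at 10.1 FPKM in replicate 6. Without replicate 5 the log2 change of Cdk1 was -1.72. Without replicate 6 the log2 change of Cdk1 was -0.63, that of Mki67 -0.49, that of Mcm2 -0.071 and that of Top2a 0.17. Without both, 4 members instead of 2 had an unadjusted p under 0.05, none passed adjustment, and Top2a turned to 0.40. Without control replicate 1 or 2 the count was 1.

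**Figure D5:**
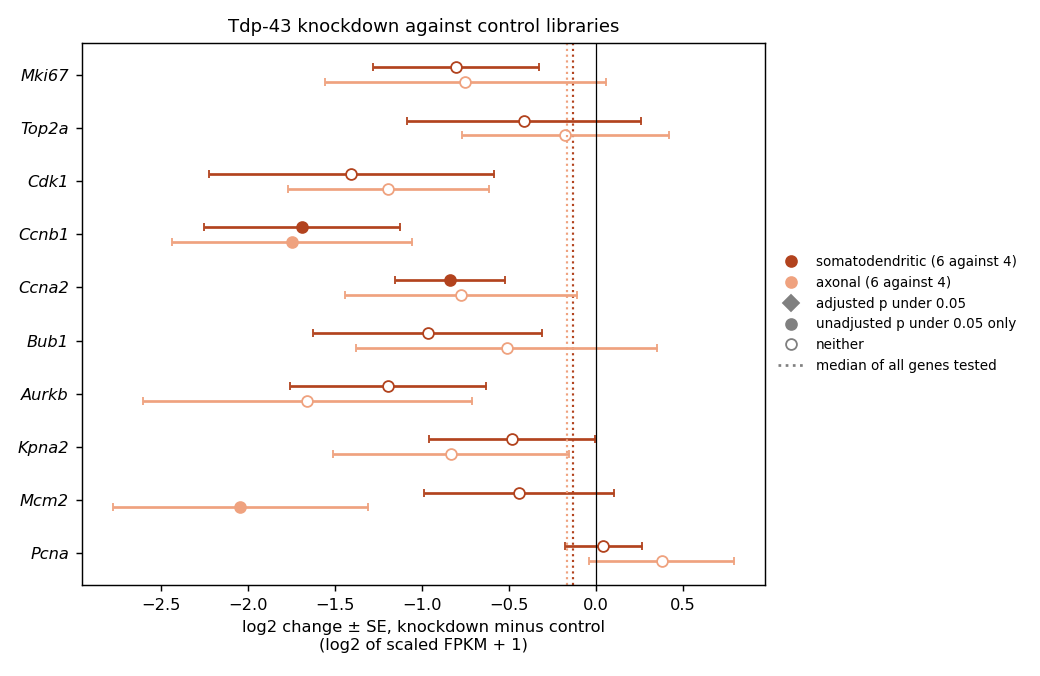
Log2 change ± SE of each of the 10 genes, knockdown minus control, in somatodendritic (dark) and axonal (light) libraries, from log2(scaled FPKM + 1). In both compartments 9 of 10 points lie to the left of 0 and none reaches an adjusted p under 0.05. The filled points pass without adjustment.

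In axonal libraries 9 of 10 members were lower in knockdown on the scaled log2 scale, with a median log2 change of -0.81 beside -0.17 for all 13958 genes (-0.34 beside 0.23 with FPKM as deposited), and none passed adjustment in limma, where 0.387% of all genes were lower. At an unadjusted p under 0.05, 2 of 10 were lower, against 6.46% of all genes. Mcm2 had 9.57 to 12 FPKM in control libraries and 14.1, 1.3, 8.14, 0, 0 and 7 FPKM in knockdown replicates 1 to 6. Scaled, every knockdown value was below every control value, which 2.02% of all genes were, while the deposited values overlap through the library labelled axonal knockdown replicate 1. The log2 change of Mcm2 was -2.04 ± 0.73 (adjusted p = 0.408), and it was -2.37 when that library was left out (adjusted p = 0.266). The values of 0, 0 and 1.3 FPKM are in replicates 4, 5 and 2, at relative depths of 0.316, 0.103 and 0.317, and without these 3 libraries the log2 change was -0.68 (adjusted p = 0.765). Ccnb1 had 8.18, 5.74, 15.2 and 13.5 FPKM in control and 22, 2.04, 5.26, 3.7, 0 and 2.76 FPKM in knockdown replicates. All knockdown values but that of replicate 1 are below the control values. Its log2 change was -1.75 ± 0.69 (adjusted p = 0.473), and with replicate 1 left out it was -2.15 (adjusted p = 0.251), while without the 3 shallow libraries it was -0.96 (adjusted p = 0.76).

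For several members the mean FPKM and the mean log2 value of axonal knockdown libraries pointed in opposite directions. Mki67 was at 19.4 ± 6.63 FPKM in control and 25.2 ± 19.6 FPKM in knockdown libraries, but at -0.75 ± 0.81 on the scaled log2 scale. Without knockdown replicate 4, at 0.434 FPKM, this was -0.080, and with FPKM as deposited it was -0.28. Top2a was at 17.6 ± 0.771 and 30.2 ± 23.7 FPKM and -0.18 ± 0.59, and its direction turned with deposited FPKM, to 0.31, and without knockdown replicate 4, to 0.22, while without replicate 1 it was -0.41. Aurkb was listed at 0 in 3 knockdown libraries and at 41.7 FPKM in the library labelled axonal knockdown replicate 1, with a log2 change of -1.66 ± 0.95, or -2.23 without that library and 0.36 without the 3 shallow libraries. Cdk1 was at 81.2 ± 31.6 and 66.5 ± 54 FPKM, and -1.19 ± 0.58. Ccna2, Kpna2 and Bub1 were at -0.78 ± 0.67, -0.83 ± 0.68 and -0.51 ± 0.86, and Pcna was at 0.38 ± 0.42. On leaving out 1 library, Ccna2 ran from -1.23 (without knockdown replicate 5) to -0.49 (without knockdown replicate 2), Kpna2 from -1.03 (without control replicate 2) to -0.30 (without knockdown replicate 4) and Bub1 from -1.03 (without knockdown replicate 5) to -0.15 (without knockdown replicate 4). Pcna ran from 0.16 to 0.68 over these fits. With FPKM as deposited, and without the libraries of a relative depth under 0.5, none of the 10 members had an unadjusted p under 0.05. Leaving out knockdown replicate 1 gave 4, as did leaving out replicate 5, and leaving out control replicate 3 or 4 gave 1.

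The difference of the knockdown effect between compartments was tested with limma on axonal minus somatodendritic values of libraries that share a number, a pairing that is assumed. None of the 10 members had an unadjusted p under 0.05, which 4.89% of 12646 genes had, and none passed adjustment, which 0.0237% did. The differences ran from -1.60 ± 0.96 for Mcm2 (adjusted p = 0.988) to 0.45 ± 1.18 for Bub1, with SEs of 0.50 for Pcna to 1.30 for Aurkb. Of the 10 differences 6 were above 0, with a median of 0.06, and on leaving out 1 number the median ran from -0.32 with 3 above 0 (without knockdown number 6) to 0.38 with 8 above 0 (without knockdown number 4), and was -0.087 with 3 above 0 without knockdown number 1.

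Of the other cell cycle lists, 1 gene passed adjustment in somatodendritic knockdown libraries and none in axonal ones. Psrc1 was at 0.197 ± 0.481 FPKM (SD, n = 6) in somatodendritic knockdown and 3.49 ± 1.13 FPKM (n = 4) in somatodendritic control libraries, a fall by 2.03 on the log2 scale (SE 0.42; adjusted p = 0.0412). It was listed at 0 in 5 of these 6 knockdown libraries and at 1.18 FPKM in the other, and these libraries also enter its difference between knockdown compartments. Of the G2 and M phase list without the members but with Psrc1, 36 of 45 tested were lower in somatodendritic knockdown libraries, where 40.7% of all genes were above 0, 6 at an unadjusted p under 0.05, where 9.22% of all genes were, with a median log2 change of -0.37. In axonal libraries, where 41.2% of all genes were above 0, 41 of 49 were lower, 2 at an unadjusted p under 0.05, a smaller share than the 6.46% of all genes, beside 1 that was higher, with a median of -0.67. Of the S phase list 27 of 32 were lower in somatodendritic libraries and 29 of 36 in axonal ones, 7 and 3 at an unadjusted p under 0.05 (9.22% and 6.46% of all genes), with medians of -0.47 and -0.54. The medians of the G1 list, -0.17 and -0.15, were close to those of all genes, -0.13 and -0.17.

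Across libraries the members did not form 1 block. Over the 10 somatodendritic libraries, the Pearson correlation of each member with the mean of the other 9, on log2(scaled FPKM + 1), was between 0.706 and 0.868 for Mki67, Aurkb, Ccnb1, Cdk1, Mcm2 and Top2a. It was 0.254 for Bub1, 0.133 for Ccna2, 0.0723 for Kpna2 and -0.125 for Pcna. Over the 10 axonal libraries it was 0.892 for Cdk1, 0.603 to 0.715 for Kpna2, Top2a, Mki67, Mcm2, Aurkb and Bub1, 0.398 for Ccnb1, 0.338 for Ccna2 and -0.00744 for Pcna. These values describe 10 libraries that also differ in depth and condition. In somatodendritic knockdown replicate 6, the shallowest of its compartment, Top2a, Cdk1, Ccnb1, Aurkb, Mcm2 and Bub1 were listed at 0. Correlations without this library were not computed. The genes outside all lists whose levels most resembled the mean of the members were Mest, BC003331, Gm27031, Ppt1 and mt-Atp8 over somatodendritic libraries (r = 0.957 to 0.979 among 8756 genes). Over axonal libraries they were Lrrk1, Akap2, Pawr, Gm10259 and Gm10184 (r = 0.941 to 0.98 among 8366 genes), the last 2 being the near-identical copies of Kpna2.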

How the data were processed

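FPKM was deposited per gene and library, computed by the authors with Cufflinks 2.2.1 after read checks with FastQC 0.10.1 (submitters' processing notes, build GRCm38), with a 95% interval per gene. RNA had been amplified by PCR. The intervals cover errors of counting and of assigning fragments to transcripts, and were not taken to cover amplification. The aligner is not given in the sources used here. Scaling used median-of-ratios factors from genes at 1 FPKM or more in all libraries compared. A gene entered a test at a mean of 1 FPKM or more, as log2(scaled FPKM + 1), with limma 3.58.1 (R 4.3.3, trend, two-sided) and Benjamini-Hochberg adjustment, which was also tested on simulated data. Values at or under 0.001 FPKM count as listed at 0. Copies were sought with blastn 2.17.0 (at least 90% identity over 300 bases) among GENCODE M21 transcripts. Members and gene lists were chosen with earlier results of these data known. Named were all members, list genes past adjustment (at most 5, otherwise 2 by level) and the 5 most similar genes. Alternatives covered scaling, pseudocount (0.1 and 5), filter, weights, replicate block and left-out libraries. The alternative without libraries of a relative depth under 0.5 was chosen after seeing the data. Of list genes chosen by level, some of the marker lists are printed. Aqp4, Olig2, Pax6, Hes1 and, between knockdown compartments, Nes were named after their values were seen. Python 3.11.15, pandas 2.3.3, numpy 2.4.6 and matplotlib 3.10.9 were used.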

Additional observations from a re-analysis of the deposited data

Results flagged for a closer look

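In 6 of 40 groups of values (10 genes in 4 groups) 1 library stood apart from the others of its group by more than Dixon's 95% limit. Chance flags about 1 in 20 groups of normally distributed values, which FPKM values with many at 0 are not. Ccnb1 was at 22 FPKM and Pcna at 148 FPKM in the library labelled axonal knockdown replicate 1, beside 5.26 and 61 FPKM in the next highest library. Ccna2 was at 87 FPKM and Bub1 at 24 FPKM in axonal knockdown replicate 5, the shallowest library, beside 32.8 and 6.72 FPKM. Bub1 was at 0.765 FPKM in axonal control replicate 4, beside 4.71 FPKM in the next lowest, and at 7.87 FPKM in somatodendritic knockdown replicate 2, where the other 5 libraries were listed at 0, so that any value above 0 would have stood apart.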

How the results depend on the processing

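The number of members with an unadjusted p under 0.05 was 2 in both knockdown comparisons. In somatodendritic libraries it was 1 with FPKM as deposited or a filter of at least 5 FPKM (6 members tested), 4 with array weights or without libraries of a relative depth under 0.5, and 1 to 3 on leaving out each replicate. In axonal libraries it was 0 with FPKM as deposited or without the shallow libraries, 1 with a pseudocount of 0.1, and 1 to 4 on leaving out each replicate. Between compartments of control cultures it was 5 instead of 8 with FPKM as deposited and 5 to 8 on leaving out each replicate, and the adjusted count was 3 instead of 5 with FPKM as deposited and 0 to 5 on leaving out each replicate. In knockdown cultures it was 2 instead of 4 with FPKM as deposited, with a pseudocount of 0.1 or without the shallow libraries, and 1 to 5 on leaving out each replicate. For the difference of the effects it was 1 with a pseudocount of 5 and 0 to 1 on leaving out each replicate. The causes were not tested. Same-numbered samples did not deviate together (correlations of -0.040 to 0.063), and the labels name no shared culture, so the numbers were taken as pairs only in the test of the difference of the effects, as an assumption. This does not show that they come from different cultures. With the replicate block 2 instead of 5 members passed adjustment between control compartments, and the other counts kept within 1.5 times.

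Directions that turned, all of them without an adjusted p under 0.05, were those of Top2a in somatodendritic knockdown (0.14 with array weights, 0.38 with the replicate block, 0.40 without the shallow libraries), Top2a in axonal knockdown (0.31 with FPKM as deposited), Aurkb in axonal knockdown (0.36 without the shallow libraries), Pcna between control compartments (-0.45 with FPKM as deposited, -0.069 with quantile normalization), and, between knockdown compartments, Mcm2 (-0.027 with FPKM as deposited, -0.31 with a pseudocount of 0.1) and Aurkb (-0.61 with a pseudocount of 0.1). On leaving out each replicate, the log2 change of Top2a ran from -0.68 to 0.17 in somatodendritic and from -0.46 to 0.22 in axonal knockdown, that of Pcna from -0.078 to 0.17 in somatodendritic knockdown and from -0.36 to 0.30 between control compartments, and between knockdown compartments that of Aurkb from -0.53 to 0.86 and that of Mcm2 from -0.54 to 0.61.

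Over all genes, the number with an adjusted p under 0.05 ran over the alternatives from 118 to 2055 between control compartments (949 as reported), from 0 to 402 between knockdown compartments (179), from 18 to 432 in somatodendritic knockdown (134), from 30 to 87 in axonal knockdown (56) and from 0 to 4 for the difference of the effects (3). With FPKM as deposited, the share of higher genes among those with an unadjusted p under 0.05 went from 48.5% to 17.1% between control compartments, from 47.4% to 30.4% between knockdown compartments, from 33.2% to 63.0% in somatodendritic and from 24.9% to 72.8% in axonal knockdown. The members' median log2 change ran from -1.32 (replicate block) to -0.34 (FPKM as deposited) in axonal knockdown and from -0.98 (pseudocount of 0.1) to -0.37 (pseudocount of 5) in somatodendritic knockdown. Between knockdown compartments it ran from 0.63 (pseudocount of 5) to 1.73 (pseudocount of 0.1), and between control compartments from 0.89 (FPKM as deposited) to 1.52 (pseudocount of 0.1).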
